A study of Rattus norvegicus with 180 samples.

Results

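The adrenal gland was compared with the other 54 organs of a miRNA atlas of the male Sprague-Dawley rat, in which total RNA was hybridised to 1-colour Agilent miRNA arrays. Its members were the 3 arrays labelled adrenal gland, from perfused rats 4, 5 and 6, beside 162 arrays of their other organs and of 180 arrays in all. All 3 rats were untreated 10-week-old males whose vessels were washed with saline before the organs were taken, and the same 3 rats gave the other 54 organs. The other 15 arrays came from 5 organs of rats 1, 2 and 3, which were not perfused, and none of them was an adrenal gland. The labels do not separate the cortex of the gland from its medulla, so each array measured the whole organ as labelled.

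The adrenal gland holds a cortex, which makes steroid hormones from cholesterol, around a medulla of chromaffin cells, which descend from the neural crest and release catecholamines. MicroRNAs are short RNAs that lower the output of messenger RNAs, which they recognise mainly through the seed, a short stretch near their 5′ end. Several of the miRNAs described here lie in clusters that are copied into RNA together: an X chromosome cluster with miR-322, miR-503, miR-351, miR-542 and miR-450a, and the imprinted Dlk1-Dio3 domain, known for its expression in brain and pituitary gland.

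The sequences below are those on which the adrenal profile turned: the X chromosome cluster, of whose 8 tested members 7 were highest in the adrenal gland, and the miR-7 pair, which was not. They are RefSeq sequences on the GRCr8 assembly, printed 5′ to 3′ with the seed, bases 2 to 8, in capitals. The 5 hairpins of the X chromosome cluster lay on the minus strand within chrX:137720933-137726241, a span of 5309 bases. The array names miR-542-3p, miR-542-5p and miR-7b matched a mature sequence by name. The array names miR-322, miR-351, miR-503 and miR-450a do not give the arm of the hairpin, so both arms are printed for them.
miR-322-5p: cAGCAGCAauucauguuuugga
miR-322-3p: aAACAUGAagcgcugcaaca
miR-503-5p: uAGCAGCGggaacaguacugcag
miR-503-3p: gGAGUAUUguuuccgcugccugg
miR-351-5p: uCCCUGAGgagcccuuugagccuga
miR-351-3p: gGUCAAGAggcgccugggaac
miR-542-3p: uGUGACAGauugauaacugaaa
miR-542-5p: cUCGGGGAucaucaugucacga
miR-450a-5p: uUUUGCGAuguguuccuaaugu
miR-450a-3p: uAUUGGGAacauuuugcauaa
miR-7a-5p: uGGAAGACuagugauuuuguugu
miR-7b: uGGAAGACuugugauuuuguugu

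The 10 sequences of the cluster carried 10 different seeds over bases 2 to 8, so its members do not form 1 seed family. The seeds of miR-322-5p and miR-503-5p, AGCAGCA and AGCAGCG, differed in their last base alone. The seed of miR-322-5p, AGCAGCA, was shared in the RefSeq table with miR-15b-5p, miR-16-5p, miR-195-5p and miR-497-5p, that of miR-351-5p with miR-125a-5p and miR-125b-5p, and that of miR-450a-5p with miR-450b-5p, which was not among the miRNAs tested. The sequences of miR-7a-5p, which 2 hairpins on chromosomes 1 and 17 encode, and of miR-7b had the same seed and differed by the substitution A10U, counted from the 5′ end. Of 345 array names tested, 64 were found as mature names in the RefSeq table.

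Values are scaled signals: background-subtracted signals of a miRNA, divided by the array's 75th percentile over the 37 miRNAs that all arrays detected and put on 1 common scale. Detection on an array meant that the scanner software marked more than 50% of the spots used as well above background. The adrenal gland arrays detected 191 to 211 miRNAs and the other perfused arrays 86 to 244. The adrenal gland array of rat 6 had 6.42% of its spots marked as outliers, against 1.63% to 4.95% on the arrays of the other organs. Its 75th percentile before scaling was 2471, against 3431 and 3380 for rats 4 and 5. It also read lowest of the 3 for miR-322, miR-322*, miR-351, miR-542-3p, miR-542-5p, miR-450a and miR-450a_v15.0. Correlations of log2 signals between the 3 arrays were 0.985 to 0.993 over 345 miRNAs. The 3 pancreas arrays stood apart from all others, with a 75th percentile of 68.0 to 121 before scaling against 336 to 6343 in the remaining organs, and the lowest signal of a detected miRNA there was 115 to 273 after scaling. The overall counts and those above every organ are therefore also given without the pancreas. Of the list counts, those of the Dlk1-Dio3 list (9 lower, 5 without the pancreas) and of the gonad list (11 and 10 lower) changed without it and the others did not. The adrenal gland arrays lay on 3 slides and were scanned on 3 days, each day holding mostly 1 rat.

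Across all miRNAs, the adrenal gland had 3 groups of raised miRNAs, the X chromosome cluster, the Dlk1-Dio3 cluster and miR-10a-5p with miR-10b. That last pair is 2 of 5 tested members of its list, in which 2 others were lower. Single miRNAs outside these groups, such as miR-672 and miR-7a (log2 differences of 3.20 and 3.01), were raised about as much as miR-10a-5p (3.19). Epithelial and striated muscle miRNAs were low or undetected, as in several other organs: by summed signal the gland was at rank 50 and 49 of 55. Against the mean of the other 54 organs, 76 of 345 miRNAs tested (22.0%) were higher and 176 (51.0%) were lower at an adjusted p under 0.05 (limma with Benjamini-Hochberg adjustment). With a log2 difference of at least 1 as well, 47 (13.6%) were higher and 48 (13.9%) were lower. Of those 47, 26 belonged to the Dlk1-Dio3 list, 7 to the X chromosome cluster and 14 to neither. Of the 176 lower miRNAs, 99 were detected on 0 of 3 adrenal gland arrays. The median log2 difference over all 345 miRNAs was -0.21, against which the lists below can be read. Without the pancreas the counts were 77 higher and 164 lower. Under normexp background correction, which moved the median of all miRNAs by -0.69 on the log2 scale, they were 33 higher and 241 lower.

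**Figure D1:**
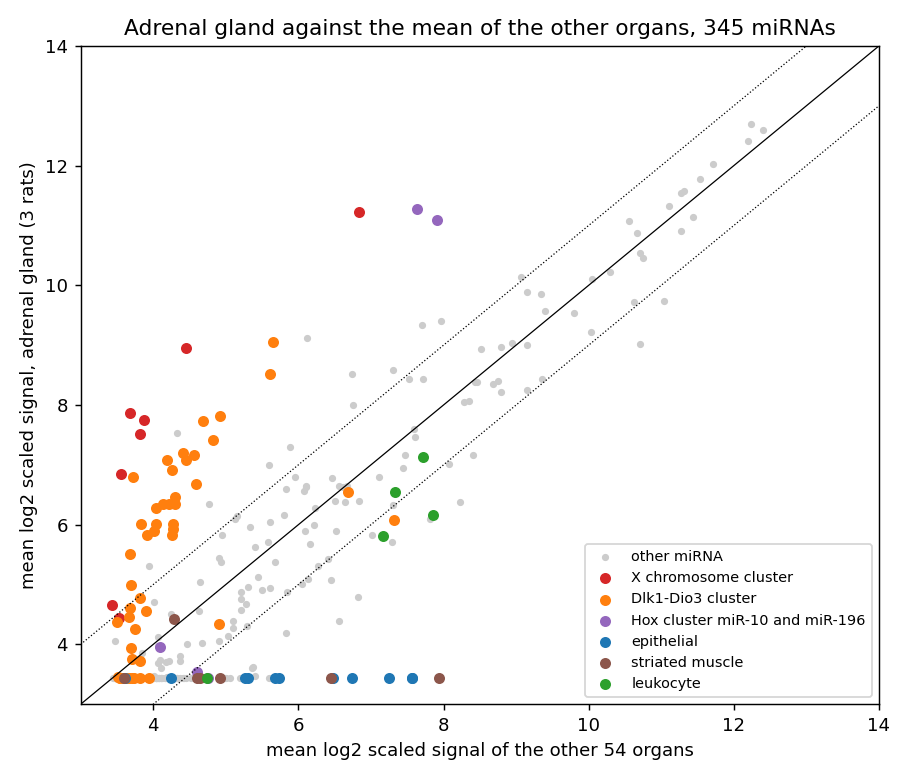
Mean log2 scaled signal in the adrenal gland (3 rats, vertical axis) against the mean of the other 54 organs (horizontal axis) for 345 miRNAs, with 6 lists in colour. The solid line marks equal signals and the dotted lines a log2 difference of 1. Above the upper dotted line lie 7 of 8 miRNAs of the X chromosome cluster, 26 of 51 of the Dlk1-Dio3 cluster and 2 of the Hox clusters, and most epithelial miRNAs lie at the bottom edge, where signals were set to the floor.

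The 7 array names that were higher in the adrenal gland than in every other organ all came from the X chromosome cluster. These were 7 of 345 tested (2.03%), under a test that required a difference from each of the 54 organs. They were also the 7 (2.03%) for which every adrenal gland array exceeded every one of the 162 arrays of other organs. The 7 are not separate miRNAs, as miR-450a and miR-450a_v15.0 are probe sets of the same miRNA. Likewise miR-322 with miR-322*, and miR-542-3p with miR-542-5p, are strands of the same hairpin, so their signals are not independent. Of the 7, miR-351 and miR-322* entered the test through the adrenal gland alone, the one organ with all 3 arrays detecting them, so their place was largely fixed by the filter and the result rests on the other 5. The count fell to 1 under normexp, where 6 of the 7 lay below another organ, and to 1 in the authors' normalised table. In the opposite direction 0 of 345 (0.0%) passed in limma, with 1 at an unadjusted p under 0.05. That miRNA, miR-345-5p, named here after its values were seen, had scaled signals of 32.1, 36.4 and 33.3, lay below every other array (1 of 345, 0.29%) and differed from the mean of the other organs by -1.36 ± 0.11 (log2, SE).

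miR-322, whose hairpin opens the cluster on its strand and whose human counterpart is miR-424, gave the highest signals of the cluster, at 2666, 2493 and 2062 in rats 4, 5 and 6. It was detected on 155 of 162 other arrays, of which the highest read 1002, so it was present in most organs and no other array reached the lowest adrenal gland array. The lung followed at 926 ± 92.4 and brown adipose tissue at 806 ± 78.6 (SD, n = 3). The log2 difference from the mean of the other organs was 4.38 ± 0.19 (SE, adjusted p = 2.1e-43, limma), and that from the lung was 1.37 (adjusted p = 1.8e-05 for the difference from every organ). That call was lost when arrays were scaled over all miRNAs, where the difference from the lung was 0.028 (adjusted p = 1.0), with the slide as a fixed term (1.11, adjusted p = 0.35) and in the authors' table (0.82, adjusted p = 0.46). The partner strand, miR-322*, read 216, 254 and 180 in the adrenal gland, where the highest other array read 52.3, and differed by 3.88 ± 0.12 (log2, SE).

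miR-542-3p was detected on 40 of 162 other arrays and read 274, 263 and 174 in the adrenal gland, all above the highest other array at 64.1. The order of organs was adrenal gland at 237 ± 55.1, testis (labelled testicle) at 54.6 ± 8.29, lung at 38.3 ± 5.72, brown adipose tissue at 27.4 ± 2.00 and skin at 20.3 ± 2.25 (SD, n = 3). The log2 difference was 4.18 ± 0.10 from the mean of the other organs (SE, adjusted p = 5.2e-68, limma) and 2.10 ± 0.14 from the testis (adjusted p for every organ = 1.9e-26). Its partner from the same hairpin, miR-542-5p, read 193, 200 and 159, again with the testis next at 60.2 ± 14.8, and differed by 3.70 ± 0.08 from the mean. Both arms thus had the same organ in front and the same organ next. With scaling over all miRNAs, quantile normalization or the authors' table the next organ was the lung for both, and under normexp the pancreas lay above the adrenal gland for both, by -1.60 and -1.89.

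miR-450a was measured by 2 probe sets, 1 of which carries the suffix v15.0 in its name. The main set read 596, 623 and 326 and the v15.0 set 138, 153 and 72.7, so both were lower in rat 6 than in rats 4 and 5. No array of another organ exceeded 130 on the main set or 39.6 on the v15.0 set. The log2 differences from the mean were 4.49 ± 0.18 and 3.30 ± 0.10 (SE), with the lung next in both. With array weights the main set was no longer called above every organ (2.17 from the lung, adjusted p = 0.052, limma).

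miR-351 was detected on 3 of 3 adrenal gland arrays and on 0 of 162 other arrays. It read 27.9, 29.1 and 19.9 in the adrenal gland, near the lower end of what the arrays resolve, while the highest other array read 3.99. With each other array set to its lowest signal of a detected miRNA, it was at least 1.72-fold above the mean of the other organs. This bounds the difference from that mean and not from each organ. The same rule, on means of log2 values, gives every "at least" value here. With the floor 4 times as high, or with undetected arrays set to their lowest detected signal, miR-351 no longer exceeded every organ.

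miR-503, the remaining member tested, was an exception to the order of the cluster. It read 45.2, 15.2 and 14.9 in rats 4, 5 and 6, so that rat 4 stood apart, and brown adipose tissue had the higher mean at 26.5 ± 2.83. Its log2 difference from the mean of the other organs was 0.91 ± 0.08 (adjusted p = 3.0e-18, limma), and 0.38 without rat 4. Among the star strands that were not tested, miR-450a* was detected on 1 adrenal gland array and on 0 of 162 others.

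**Figure D2:**
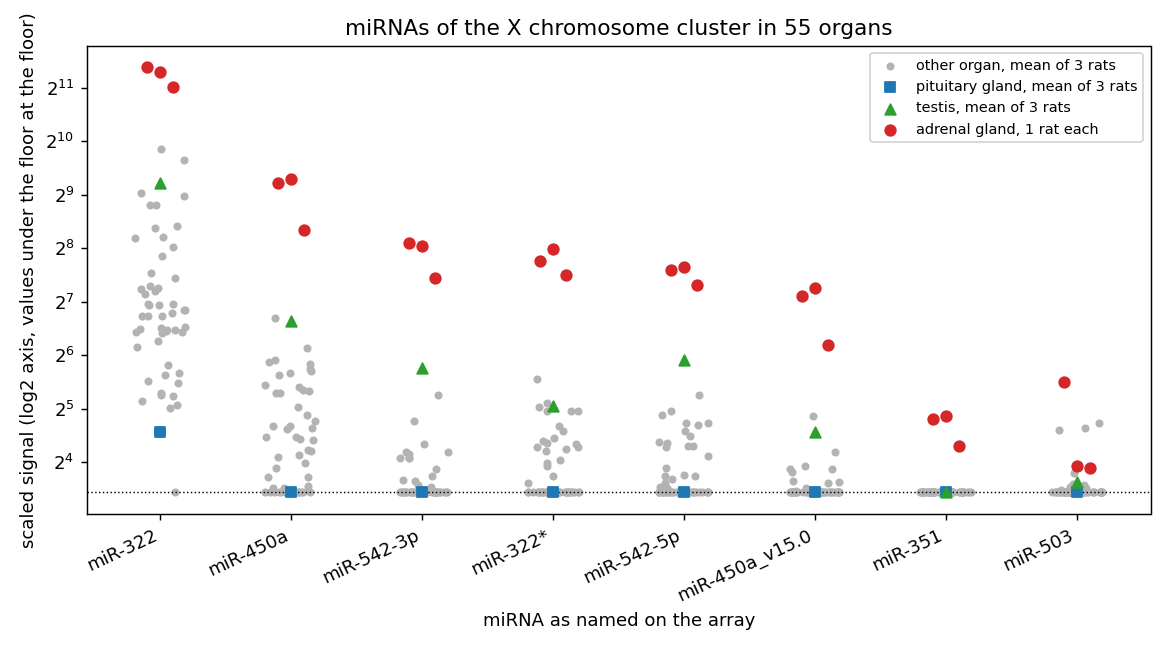
Scaled signals (log2 axis) of 8 miRNAs of the X chromosome cluster: red points are the adrenal gland of rats 4, 5 and 6 from left to right, and grey points, the square and the triangle are means of 3 rats in other organs, the pituitary gland and the testis. The dotted line is the floor. Red points lie above all others for 7 miRNAs and overlap other organs for miR-503.

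All 8 tested members of the cluster were called higher than the mean of the other organs, where 22.0% of all miRNAs were, with a median log2 difference of 3.79. For miR-351 and miR-322* the filter largely fixed this, which leaves 6 members. Among these are the probe sets of miR-450a and both strands of miR-542, which are not independent. Under normexp 6 of the 8 were called, and miR-351 (-0.22) and miR-503 (-0.35) changed sign. With outlier spots kept, and with the floor 4 times as high, 7 of the 8 were called. Over the 54 organs other than the adrenal gland, the log2 organ means of miR-542-3p correlated with those of miR-450a_v15.0 at 0.93, miR-542-5p at 0.88, miR-450a at 0.79 and miR-322* at 0.78 (Pearson). The value was 0.69 for miR-503 and 0.64 for miR-322, below the 0.66 of miR-449a, which is not in the cluster, and miR-351 gave none. With the adrenal gland included, over 55 organs, the other 7 members gave 0.68 to 0.97. These values include the organ in which the members were high, and that of miR-351 rests on it alone, so nothing is drawn from them. These are descriptions over organs that share rats, slides and scaling. Leaving out any 1 of the 3 rats' adrenal gland arrays left the same 7 miRNAs above every other organ, and so did leaving out the pancreas. The count was 1, miR-322, under normexp and 1, miR-351, in the authors' normalised table, where the 7 still had positive differences of 0.82 to 3.26 from the next organ on the log2 scale. Under normexp the direction turned for 6 of the 7, which lay below the pancreas by log2 differences of -0.64 (miR-450a) to -3.63 (miR-351), and without the pancreas 5 lay below the parotid gland, by -0.35 to -2.34. With undetected arrays set to their lowest detected signal, 3 of the 7 lay below the pancreas and 5 were not called, and without the pancreas miR-351 alone was not called (-0.51).

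The tested miRNAs that share a seed with miR-322-5p or miR-351-5p, taken for that seed and not for their values, went different ways. miR-16 read 1306, 1626 and 1307 and differed from the mean of the other organs by -0.29 ± 0.12 (adjusted p = 0.022, limma), and miR-15b differed by -0.90 ± 0.16 (adjusted p = 2.2e-07). For miR-195 the difference was -0.35 ± 0.17 (adjusted p = 0.051) and for miR-497 it was -0.08 ± 0.16 (adjusted p = 0.66). So none of the 4 was called higher. miR-125a-5p and miR-125b-5p, which share a seed with miR-351-5p and with each other, went opposite ways, at 1.27 ± 0.16 and -1.29 ± 0.16, both past the threshold.

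miR-7a, an miRNA of endocrine and neural cells, was high in the adrenal gland without being highest there. It read 595, 449 and 652 in rats 4, 5 and 6, and was detected on 128 of 162 other arrays. The pituitary gland led at 21840.0 ± 1193, followed by the thalamus at 2763 ± 480, the testis at 619 ± 57.2, the adrenal gland at 565 ± 105 and the hippocampus at 486 ± 135 (SD, n = 3). The pituitary gland lay far above all other organs, and the adrenal gland and its neighbours in that order overlapped. The log2 difference from the mean of the other organs was 3.01 ± 0.17 (SE, adjusted p = 5.7e-33, limma), and that from the testis was -0.14 ± 0.24 (adjusted p = 0.74). miR-7b, which differs from it by 1 base, read 35.6, 22.5 and 22.2 and was detected on 2 of 3 adrenal gland arrays, with a log2 difference of 0.70 ± 0.11 (adjusted p = 6.4e-09). That sign turned under normexp (-0.54) and with the higher floor (-0.23). Of the 2 star strands of miR-7a, miR-7a-1* was detected on 0 of 3 adrenal gland arrays. By the fit it was 1.41-fold lower, with low signals of all organs at the floor, so this is not a bound.

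**Figure D3:**
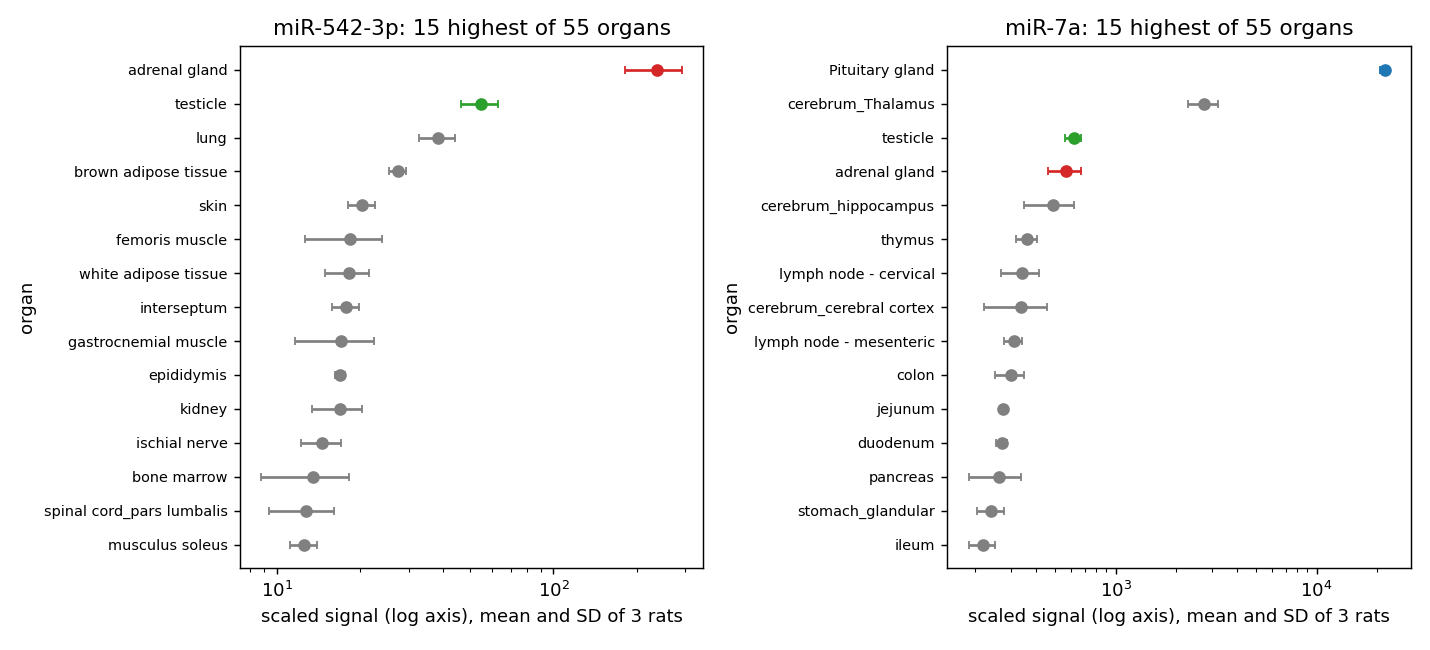
The 15 organs with the highest scaled signal of miR-542-3p (left) and miR-7a (right), as mean and SD of 3 rats on a log axis, with the adrenal gland in red, the pituitary gland in blue and the testis in green. The adrenal gland leads for miR-542-3p at 237 and is the fourth organ for miR-7a at 565, behind the pituitary gland at 21840.0.

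miR-652, also listed by the study for this organ, read 617, 697 and 630 in the adrenal gland and was detected on all 162 other arrays. The Harderian gland led at 3817 ± 630, then came bone marrow at 859 ± 140, testis at 821 ± 154, thymus at 656 ± 55.9 and the adrenal gland at 648 ± 43.0. The last 4 overlapped. The log2 difference was 1.63 ± 0.13 from the mean of the other organs (SE, adjusted p = 3.0e-22, limma). Because miR-7a, miR-542-3p and miR-652 were picked by the study on these arrays, their being high is no independent evidence. The study's listings of highly expressing organs name neither testis nor thymus for miR-652, and do not name the testis for miR-7a. Those listings rest on the study's own normalisation and the organ orders here on another scaling, so the 2 are not like for like.

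The Dlk1-Dio3 cluster formed the largest group of raised miRNAs. Of 95 array names assigned to it, 51 were tested, of which 32 were higher than the mean of the other organs, 9 were lower and 10 were not called, with a median log2 difference of 1.31. These shares were 62.7% higher and 17.6% lower, against 22.0% and 51.0% over all 345 miRNAs. The 32 differed by 0.50 to 3.40, and for each of them the adrenal gland stood between ranks 2 and 11 of 55 organs. miR-127, which lies antisense to the imprinted gene Rtl1, read 635, 442 and 527, against a median organ mean of 25.4, and differed by 3.40 ± 0.19 (SE, adjusted p = 8.3e-34, limma). Its highest organ was the pituitary gland at 1996 ± 125. miR-431 read 131, 92.3 and 115 and was detected on 27 of 162 other arrays, with the pituitary gland ahead at 299 ± 15.1 and the adrenal gland next. miR-379 differed by 3.04 ± 0.16 and miR-434 by 2.91 ± 0.19. For 31 of the 32 the signal was lower than in the pituitary gland at an adjusted p under 0.05, and for all 32 it was higher than in the testis. Of the 9 lower members, 5 were detected on 0 adrenal gland arrays. The counts were 33 higher and 4 lower when arrays were scaled over all miRNAs and 32 and 5 under quantile normalization, but 11 and 16 under normexp, where the median of the list was -0.22 and that of all miRNAs -0.90.

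miR-10a-5p and miR-10b, which lie within Hox gene clusters, were the other strong feature. miR-10b read 2263, 2583 and 2592 in the adrenal gland, where its mean of 2479 ± 187 was exceeded by the epididymis alone at 4384 ± 798, and differed by 3.64 ± 0.22 (SE, adjusted p = 2.6e-31, limma). miR-10a-5p read 2066, 2213 and 2286 and lay in a group with epididymis, colon, kidney and cecum ahead of it, with a difference of 3.19 ± 0.21. Of the other 3 tested members of this list, 2 were lower. miR-196b, detected on 0 of 3 adrenal gland arrays, was 2.50-fold lower by the fit, with low signals of all organs at the floor. miR-196a differed by -1.07 ± 0.16, and its sign turned in the authors' table (1.32). miR-672, in none of the lists, read 166, 196 and 193 and differed by 3.20 ± 0.12, with the epididymis at 709 and the pancreas at 242 ahead.

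Other miRNAs of neural and endocrine cells did not move as 1 group. Of 7 tested neuroendocrine miRNAs other than the miR-7 family, 3 were higher, 2 were lower and 2 were not called, with a median of 0.05. miR-375, an miRNA of pancreatic islets and pituitary cells, read 139, 101 and 147 and differed by 1.40 ± 0.26 (adjusted p = 8.6e-07, limma), while the pancreas led at 5873. On the slides of the adrenal gland alone, which held fewer organs, it differed by -0.95 (adjusted p = 1.5e-05). miR-129-2* read 43.1, 53.2 and 80.0 and differed by 0.88 ± 0.19, but by -0.61 under normexp and -0.58 with the higher floor. Of 11 tested neuronal miRNAs, 1 was higher and 8 were lower, with a median of -0.68. Over all 345 miRNAs the shares were 22.0% higher and 51.0% lower, so neither list is called apart from the rest. The higher one was miR-128, at 318, 411 and 382 and a difference of 1.79 ± 0.17. miR-124 and miR-9, which define neurons and neural progenitors, were detected on 0 of 3 adrenal gland arrays. Of 3 tested myelin miRNAs, miR-219-5p was higher by 1.58 ± 0.20 but not under normexp (-0.12), at 79.7, 82.5 and 81.9, and miR-338 was lower by -2.02 ± 0.26. miR-219-2-3p, from a hairpin of the same family, was detected on 0 adrenal gland arrays.

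Of 14 tested miRNAs that had been linked in other work to adrenal steroid production, 2 were higher, 5 were lower and 7 were not called (14.3% and 35.7%, against 22.0% and 51.0% over all miRNAs), with a median log2 difference of -0.22 against -0.21 over all miRNAs. The 2 higher ones were miR-125a-5p and miR-503, whose values are above, and miR-125b-5p was the member that fell furthest. miR-21 was among the 5 brightest miRNAs of the gland, at 4760, 3252 and 2770 in rats 4, 5 and 6, and differed from the mean of the other organs by 0.25 ± 0.17 (adjusted p = 0.17, limma). The others of the 5 were let-7f, let-7a, let-7c and let-7b, at 6646 ± 227, 6173 ± 250, 5485 ± 503 and 4179 ± 534 (SD, n = 3). let-7f was higher than the mean by 0.45 ± 0.13 (adjusted p = 9.9e-04), and the differences of the other let-7 miRNAs were 0.18 to 0.31. That of let-7c, 0.22 ± 0.11, had an adjusted p of 0.053 in limma and of 0.0498 with the rat as a block. These let-7 miRNAs differ by few bases, and cross-hybridisation between them was not tested.

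**Figure D4:**
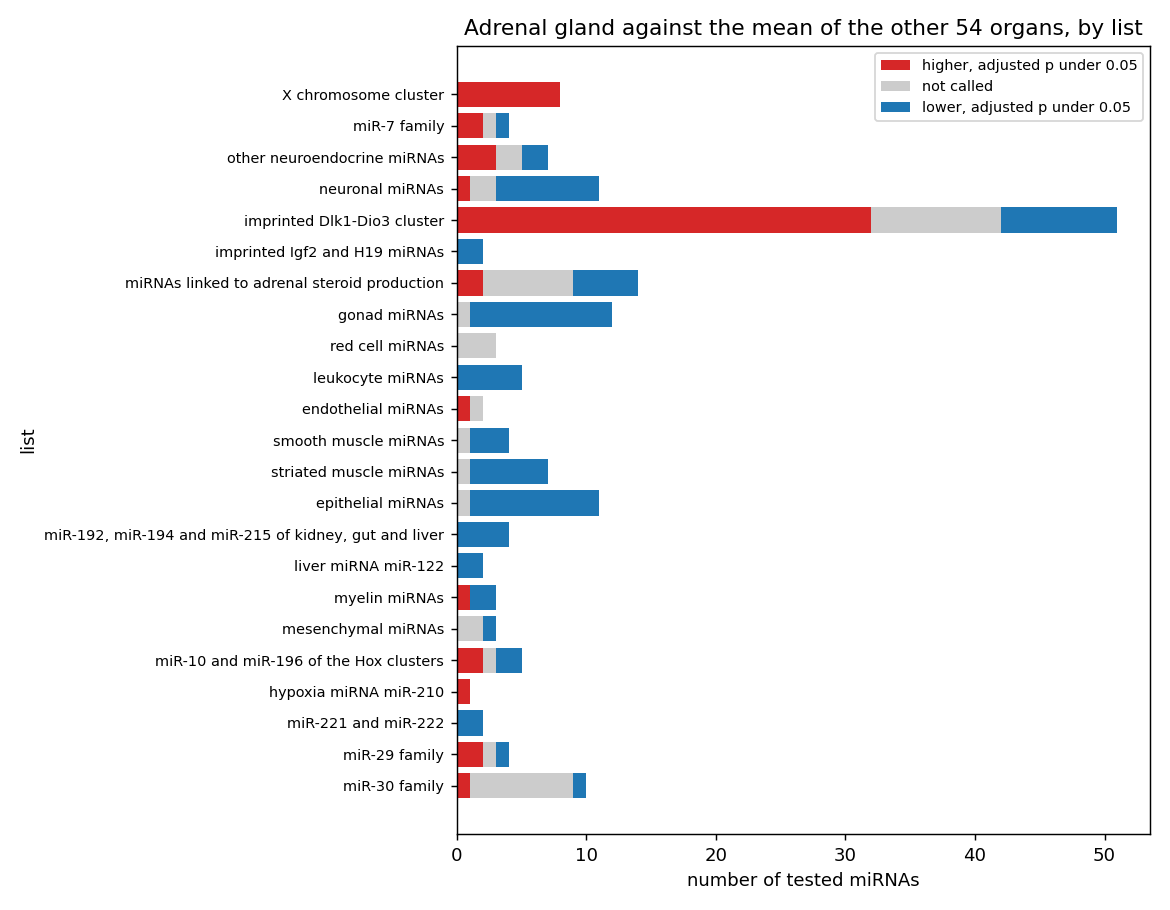
Number of tested miRNAs of 23 lists that were higher in the adrenal gland than the mean of the other 54 organs, lower, or not called (limma, adjusted p under 0.05). Of the X chromosome cluster 8 of 8 were called higher, 2 of which passed the detection filter through the adrenal gland alone, the Dlk1-Dio3 cluster was mostly higher (32 of 51), and the epithelial list mostly lower (10 of 11).

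The miRNAs of epithelia were not detected in the adrenal gland. Of 11 tested, 10 were lower, where 51.0% of all miRNAs were, and 1 was not called, and all 11 were detected on 0 of 3 adrenal gland arrays, with a median log2 difference of -2.30. The 5 members of the miR-200 family led. By the fit, miR-200c_v15.0, miR-200b, miR-200a, miR-429 and miR-141 were 17.6, 17.4, 14.0, 9.90 and 8.21-fold lower than the mean of the other organs. Their scaled signals in the adrenal gland were between -0.56 and 0.89, while miR-200b reached 13187 in the prostate (labelled prostate_other). miR-203 and miR-205_v15.0, of skin and other squamous epithelia, were 4.92 and 4.72-fold lower by the same fit. Low signals were set to the floor in the adrenal gland and in other organs alike, so these folds are not lower bounds. Over the alternatives the smallest log2 differences were -3.01 for miR-200b, -1.98 for miR-141, -1.30 for miR-203 and -1.27 for miR-205_v15.0.

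Muscle and gut miRNAs were mostly called lower as well, in short lists to be read against the 51.0% of all 345 miRNAs that were called lower. Of 7 tested miRNAs of striated muscle, 6 were lower and 0 higher. miR-133b read 4.35, 5.37 and 5.84, with 0 of 3 arrays detecting it, and was 22.7-fold lower than the mean of the other organs by the fit. miR-1 was 8.08-fold lower. Low signals of all organs were set to the floor, so neither fold is a bound. Over the alternatives the smallest log2 differences were -2.90 for miR-133b and -1.97 for miR-1. Of 4 tested smooth muscle miRNAs 3 were lower, with miR-143 at 465, 647 and 461, a level that was still detected, and a difference of -1.69 ± 0.24 (SE, adjusted p = 4.1e-10, limma). All 4 miRNAs of the miR-192, miR-194 and miR-215 list, which mark kidney, gut and liver, were lower, and 1 adrenal gland array detected 1 of them. The 2 strands of miR-122, the liver miRNA, were detected on 0 adrenal gland arrays.

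Markers of cells that the gland could hold besides its own gave these levels. Of 5 tested leukocyte miRNAs all 5 were lower, where 51.0% of all miRNAs were, and their summed signal was 324 to 436 in the adrenal gland, with a median of 758 over the other organs and a maximum of 36650 in the thymus. Of 3 tested red cell miRNAs 0 were called. miR-451, which defines red cells, gave most of a summed signal of 30.7 to 84.3, against a median of 29.8 over the other organs and 27360 in bone marrow. Endothelial miR-126 read 1024, 978 and 803 and differed by 0.52 ± 0.21 (adjusted p = 0.020, limma), a call that was lost without rat 4 or rat 5. Of 3 tested mesenchymal miRNAs, 1 was lower and 2 were not called. In tissue arrays, fewer cells of a type and less RNA per cell cannot be told apart, and the part of any other cell type in the adrenal gland values was not tested. miR-342-3p, among the 10 largest negative differences, read 18.7, 22.5 and 22.2, with a mesenteric lymph node mean of 1122, and differed by -2.16 ± 0.17.

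Of the smaller lists, miR-221 and miR-222 were both lower, by -0.95 ± 0.19 and -0.50 ± 0.19 (SE), and the sign of miR-222 turned in the authors' table (0.57). miR-210, known as a hypoxia miRNA, read 76.6, 55.9 and 75.7 and differed by 0.97 ± 0.18, but by -0.15 under normexp. Of 4 tested miR-29 miRNAs 2 were higher, 1 was lower and 1 was not called, with a median of -0.02. Of 10 tested miR-30 miRNAs 1 was higher, 1 was lower and 8 were not called, with a median of -0.09. Over all miRNAs 22.0% were higher and 51.0% lower. The 2 tested miRNAs of the imprinted Igf2 and H19 genes were lower and were detected on 0 adrenal gland arrays. Across 345 miRNAs, the log2 organ mean of the adrenal gland correlated best with that of the ischial nerve (Pearson 0.86), then with white adipose tissue (0.84), vein (0.83) and brown adipose tissue (0.81). By Spearman's rho the ischial nerve was first as well (0.82), but femoris muscle (0.79), interseptum and gastrocnemial muscle (both 0.78) came next, and white adipose tissue was at 0.72. The value was 0.71 for the pituitary gland, 0.59 for the testis and 0.37 for the pancreas, and miRNAs are not independent replicates.

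The pituitary gland, an endocrine gland that controls the adrenal cortex, had higher levels of most Dlk1-Dio3 miRNAs and of the miR-7 family, and lower levels of the X chromosome cluster and miR-10. Against it, 53 of 345 miRNAs (15.4%) were higher in the adrenal gland and 126 (36.5%) were lower (limma, adjusted p under 0.05). When arrays were scaled over all miRNAs the counts were 85 and 81, from the authors' values 89 and 81, and under normexp 27 and 73. The rat 5 pituitary array carries 2 rat numbers in its labels, and without arrays of that kind the counts were 53 and 124.

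All 8 tested members of the X chromosome cluster were called higher than in the pituitary gland, where 15.4% of all 345 miRNAs were. Of the 8, miR-351 and miR-322* had passed the filter through the adrenal gland alone. miR-322 read 21.7, 24.6 and 24.6 there, a log2 difference of 6.66 ± 0.26 (SE, adjusted p = 6.2e-47, limma). miR-450a, miR-542-3p and miR-542-5p were each detected on 0 of 3 pituitary arrays and were at least 44.8, 21.1 and 16.6-fold higher in the adrenal gland. miR-10b read 0.27 to 1.58 on the pituitary arrays and was at least 224-fold higher in the adrenal gland, while miR-10a-5p, at 3.64 to 7.43 with 1 of 3 pituitary arrays detecting it, lay under the floor there, which sets its fitted log2 difference of 7.66. The separation was complete for each of these miRNAs.

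In the other direction, 43 of 51 Dlk1-Dio3 miRNAs were lower than in the pituitary gland and 0 were higher, with a median log2 difference of -1.34 against 0.00 over all miRNAs. Over all 345 miRNAs 36.5% were lower and 15.4% higher, against which the list counts here can be read. All 4 miRNAs of the miR-7 family were lower, miR-7a by -5.29 ± 0.24 and miR-7b by -7.73 ± 0.15, against pituitary signals of 20572 to 22939 and 4945 to 5972. Of the 7 other neuroendocrine miRNAs 6 were lower, among them miR-375, at 4953 to 6070 in the pituitary gland. miR-551b read 1394 to 1580 there and was at least 140-fold lower in the adrenal gland, and miR-200c_v15.0 was at least 409-fold lower. miR-128 went the other way, higher in the adrenal gland by 1.06 ± 0.23 (adjusted p = 3.9e-05).

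The testis, which also makes steroid hormones, came next after the adrenal gland for both miR-542 arms in the main scaling. Other settings changed that order. Of 345 miRNAs, 78 (22.6%) were higher in the adrenal gland and 133 (38.6%) were lower (limma, adjusted p under 0.05). When arrays were scaled over all miRNAs the counts were 113 and 80, from the authors' values 128 and 92, and under normexp 15 and 285. The testis arrays had a 75th percentile of 540 to 738 before scaling against 2471 to 3431 on the adrenal gland arrays, and their lowest detected signals were 22.6 to 29.4 against 5.57 to 7.98. Their part in these counts was not tested.

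All 8 tested members of the X chromosome cluster were called higher than in the testis, where 22.6% of all 345 miRNAs were. Of the 8, miR-351 and miR-322* had passed the filter through the adrenal gland alone, and the testis arrays detected 4 not at all or on 1 array. miR-351, miR-503 and miR-450a_v15.0 were detected on 0 of 3 testis arrays and miR-322* on 1 of 3. The lowest detected signals there, 22.6 to 29.4, overlap the adrenal gland signals of miR-351 (19.9 to 29.1) and miR-503 (14.9 to 45.2), so no fold is given for these 2, and miR-450a_v15.0 was at least 4.27-fold higher. miR-322 read 551, 645 and 596 there and differed by 2.01 ± 0.26 (SE, adjusted p = 2.3e-11, limma). Of 51 Dlk1-Dio3 miRNAs, 35 were higher than in the testis and 2 were lower, where 22.6% of all 345 miRNAs were higher and 38.6% lower. Among the higher ones, miR-127 differed by 4.46 ± 0.26 and miR-379 by 4.17 ± 0.22. miR-10a-5p was higher by 4.36 ± 0.30, while miR-10b, at 1017 to 1090 in the testis, was higher by 1.23 ± 0.30.

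All 12 tested gonad miRNAs were lower in the adrenal gland than in the testis, where 38.6% of all 345 miRNAs were, with a median log2 difference of -6.92. miR-34b_v15.0, miR-34c and miR-34b, which are known from ciliated and germ cells, read 17741 to 23030, 12362 to 16950 and 11346 to 15282 in the testis. In the adrenal gland the same 3 read 8.71 to 10.3, 5.99 to 6.76 and 7.91 to 9.99, all under the floor of 10.8, which sets the adrenal side of their fitted log2 differences of -10.82, -10.33 and -10.25. miR-449a, which shares their seed family, was at least 618-fold lower. miR-143 was also lower, by -2.81 ± 0.33. miR-7a and miR-652 did not pass the threshold against the testis, at -0.14 ± 0.24 and -0.33 ± 0.18 (adjusted p = 0.74 and 0.12). The pituitary gland and the testis were set against the same 3 adrenal gland arrays, so the 2 comparisons are not independent.

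**Figure D5:**
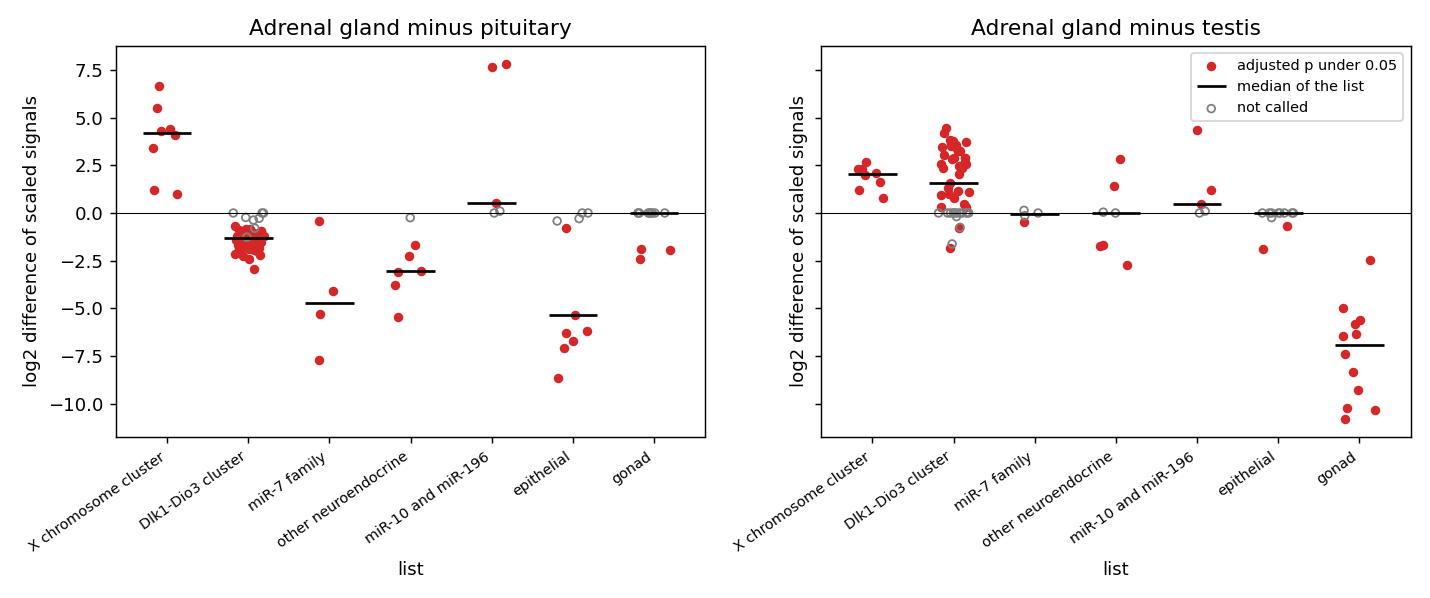
Log2 differences of scaled signals, adrenal gland minus pituitary gland (left) and minus testis (right), for the tested miRNAs of 7 lists. Red points passed an adjusted p under 0.05 (limma), open points did not, and bars are list medians. The X chromosome cluster lies above 0 in both panels (miR-351, miR-503 and miR-450a_v15.0 were detected on 0 of 3 testis arrays and miR-322* on 1), the Dlk1-Dio3 cluster lies below 0 against the pituitary gland (median -1.34) and above 0 against the testis (median 1.56), and the gonad list lies low against the testis (median -6.92).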

How the data were processed

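Values came from 180 Agilent Feature Extraction 10.7.3 files. The deposited files hold each spot's processed signal intensity, background-subtracted by the authors' scanner software, and its median signal and background intensities. The authors also deposited a table of normalised intensity, which was used as an alternative; per the methods it was scaled to the 75th percentile, its column medians were 0.040 to 1.05, its log2(value + 1) correlated with the scanner values of the same array at 0.87 or more, and any centring is not given in the sources used here. Outlier spots were dropped, spots and then probe sequences averaged per miRNA, and each array was divided by its 75th percentile over the 37 miRNAs that all arrays detected, then brought to a common level of 2118. A floor of 10.8 was applied before taking log2, so low differences are understated and spreads at the floor are too small. limma 3.58.1 (R 4.3.3) was fitted to the perfused arrays, 3 for each of 55 organs, with 1 term per organ, over the 345 miRNAs that some organ showed as detected in each of its 3 rats. A miRNA was above every organ if its largest 1-sided p over 54 contrasts passed Benjamini-Hochberg adjustment. The fit was also run on simulated data with independent noise. These had no rat or slide effect and no floor applied after the noise, so the run says nothing about those. The number of arrays, 3 per organ from 3 animals, limits the precision.

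Equal rat numbers in the titles were taken to mark the same animal, so they pair the arrays. On the rat 5 arrays of pituitary gland, medulla oblongata, spinal cord and limb muscle, the source name carries another rat number. Residuals correlated at 0.050 within rats and -0.025 between rats, and a replicate block by rat is among the alternatives. Named miRNAs were the study's 3, the 10 largest differences each way, those beyond every organ, the 5 brightest, the 3 largest each way against pituitary gland and testis, and up to 4 called members per list. The miRNAs, lists and comparisons were chosen with earlier results of these data known. miRNA sequences are RefSeq's, on GRCr8.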

Additional observations from a re-analysis of the deposited data

How the results depend on the processing

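The 82 named miRNAs were refitted under 26 alternatives, which gave 2092 log2 differences. Of these, 1967 were counted as unchanged, 93 as falling short of the threshold, 10 as newly passing it and 22 as changing sign. The sign changes counted leave out let-7a, whose lowest value over the alternatives was -0.014 against a positive main difference. The fit with the replicate block by rat ended no call among the named miRNAs, newly called let-7c (0.22, adjusted p = 0.0498, limma) and moved no count by over 1.5 times: it gave 78 higher and 178 lower miRNAs against the mean of the other organs, 7 above every organ, 55 and 128 against the pituitary gland and 79 and 135 against the testis. Leaving out 1 adrenal gland array at a time gave 71 to 75 higher, 149 to 154 lower, 7 above and 0 below every organ. Leaving out 1 array of either side gave 47 to 53 higher and 124 to 127 lower against the pituitary gland, and 72 to 75 higher and 128 to 130 lower against the testis.

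Under normexp the counts were 33 higher against the mean of the other organs, 1 above every organ, 27 and 73 against the pituitary gland and 15 and 285 against the testis. Normexp without the pancreas gave 33, 1, 25 and 71, and 15 and 285. The authors' table gave 1 above every organ, 89 and 81 against the pituitary gland and 128 higher than the testis, and without the pancreas 1, 90 and 82, and 129. Scaling over all miRNAs gave 85 and 81 against the pituitary gland and 80 lower than the testis, and the slide as a fixed term gave 35 higher than the pituitary gland. For these the cause was not tested. The stricter filter, which tested 144 miRNAs, gave 31 higher and 71 lower against the mean, 1 above every organ, 54 lower than the pituitary gland and 31 and 68 against the testis. The slides of the adrenal gland alone, with 24 arrays and fewer organs, gave 47 above and 1 below every organ. With undetected arrays set to the lowest detected signal on the array, a choice made after seeing the data, 2 miRNAs were above every organ and 237 lower than the testis. Without the pancreas that setting gave 6 above every organ and 238 lower than the testis.

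The sign changes under normexp were miR-351 (-0.22), miR-7b (-0.54), miR-129-2* (-0.61), miR-503 (-0.35), miR-219-5p (-0.12) and miR-210 (-0.15). In the authors' table they were miR-34b_v15.0 (0.70), miR-34c (0.47), miR-34b (0.48), miR-129 (2.39), miR-182 (0.082), miR-196a (1.32), miR-222 (0.57) and miR-30c-2* (0.011). The higher floor turned miR-7b (-0.23) and miR-129-2* (-0.58), the lower floor turned miR-129 (0.75), and a mean without the nervous system and pituitary gland turned miR-129 as well (0.20). On the slides of the adrenal gland alone miR-21 (-1.17), miR-375 (-0.95) and miR-29a (-0.051) changed sign, and with the slide as a fixed term miR-126 did (-0.051). Of these, miR-21, miR-29a, miR-126 and miR-375 had adrenal gland means above 100 and the other 14 had means of 4.58 to 81.4, and the cause of the sign changes was not tested. The lowest signals of a detected miRNA, 5.57 to 7.98 on the adrenal gland arrays, limit what could be resolved there.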
